A study of Homo sapiens with 31 samples.

Results

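The transcripts described here were those whose ribosome footprints took a larger share of the library after PP242 in both naive and EIF4A2 knockout (KO) cells. They were chosen from the 12 ribosome profiling libraries. A transcript needed 50 or more counts in every one of them, a length under 3000, and a log2 difference of 0.5 or more from the DMSO mean of its genotype with each dose of PP242 (1 and 10 µM) in both genotypes. The difference was taken between log2 CPM values, that is the count plus 0.5, divided by the file's sum and scaled to CPM. The rule gave 399 members among 22015 transcripts that met its other parts, out of 77343 distinct transcripts with a count and 227264 listed. A further 13 transcripts reached the rise but were too long, and 1 was left out by name. The naive and EIF4A2 KO values chose the members and are given below as a description with no test. The EIF4A1 KO profiling libraries entered the choice only through the count minimum, and RNA-seq and the pulldowns took no part in it.

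The cells were HEK293 T-REx, an established line from human embryonic kidney that carries the Tet repressor for inducible expression. Naive, EIF4A1 KO and EIF4A2 KO cells were profiled. Every genotype had 2 libraries with DMSO, 1 with 1 µM PP242 and 1 with 10 µM, a 30 min treatment with this inhibitor of the mTOR kinase. Naive and EIF4A1 KO cells also had 2 RNA-seq libraries per genotype, without PP242. Pulldowns of SBP-eIF4A1 or SBP-eIF4A2, factors carrying a streptavidin-binding tag, had 2 input and 2 pulldown libraries per protein, and SBP-eIF4A1 was also pulled down after 72 h of control siRNA (siControl; 2 inputs, 2 pulldowns) or LARP1 siRNA (siLARP1; 2 inputs, 1 pulldown). The labels do not say how many clones stand behind a KO line, whether libraries of a group came from separate cultures, or how the tagged proteins were driven. The p-values therefore measure only the spread between these libraries, which may be technical. No pulldown from cells without the tag was analysed here.

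eIF4A1 and eIF4A2 are closely related DEAD-box RNA helicases of the cap-binding complex eIF4F, which opens the 5' leader of an mRNA for the small ribosomal subunit. When mTORC1 is inhibited, 4E-binding proteins take eIF4E away from eIF4F, and LARP1 binds the cap and the start of mRNAs with a 5' terminal oligopyrimidine (TOP) tract, mostly those of ribosomal proteins and elongation factors. Translation of TOP mRNAs is known to fall strongly. Profiling counts are shares of a library, so a transcript whose translation holds while others fall gains share without any gain in ribosomes.

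The files pair no transcript with a gene, and 0 transcript IDs matched the gene tables at hand. No member is therefore named by gene, no sequence is shown, and the KO and knockdown labels and the cell line's markers were not checked against the counts. The profiling libraries summed to 9206275 to 23604578 counts, the RNA-seq libraries to 72099934 to 78989380, and the pulldown and input libraries to 43413344 to 64179407. The median member had 142 to 424 counts in a profiling library. Many members were neighbours in the files with near-equal values in every library, as overlapping transcripts of a gene would be, and how shared reads were assigned is not given in the sources used here. Members within 10 distinct rows of each other in the files and correlated at 0.9 or more over all 31 libraries were joined into blocks, which gave 179 blocks. Of these, 90 held 1 member, 85 held 2 to 7 and 4 held more than 7, with 20, 18, 16 and 14 members. Counts below are given for members and for 1 representative per block, the one with the highest total count.

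In the libraries that chose them, the members lay close to the threshold. Their median log2 difference was 0.645 at 1 µM and 0.652 at 10 µM in naive cells, and 0.64 at 1 µM and 0.59 at 10 µM in EIF4A2 KO cells, and the highest values were 1.47, 1.84, 1.32 and 1.44 in the same order. The other 21616 transcripts that met the rest of the rule had medians of 0.22, 0.20, 0.20 and 0.19. For comparison, the 2 DMSO libraries of a genotype differed by a median of 0.11 in naive and 0.09 in EIF4A2 KO cells for a member, in either direction. Among the 3 members nearest the threshold the smallest of the 4 differences was 0.50, and among the 3 transcripts just outside it was also 0.50 after rounding, so members and non-members are not separated by a gap.

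The scaling set how many transcripts reached the threshold. The rule divided by the library's count sum, and most transcripts gained share on that scale. With TMM scaling, which centres the bulk of transcripts, each response of the members was lower by 0.14 to 0.20. A shift of that size cannot bring a difference of 0.5 down to 0, so all 399 members had to stay above 0 in naive and EIF4A2 KO cells. Their medians there were 0.41 to 0.48 with TMM, and 24 members still reached 0.5 in all 4 differences. DESeq2 size factors also left 24.

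**Figure D1:**
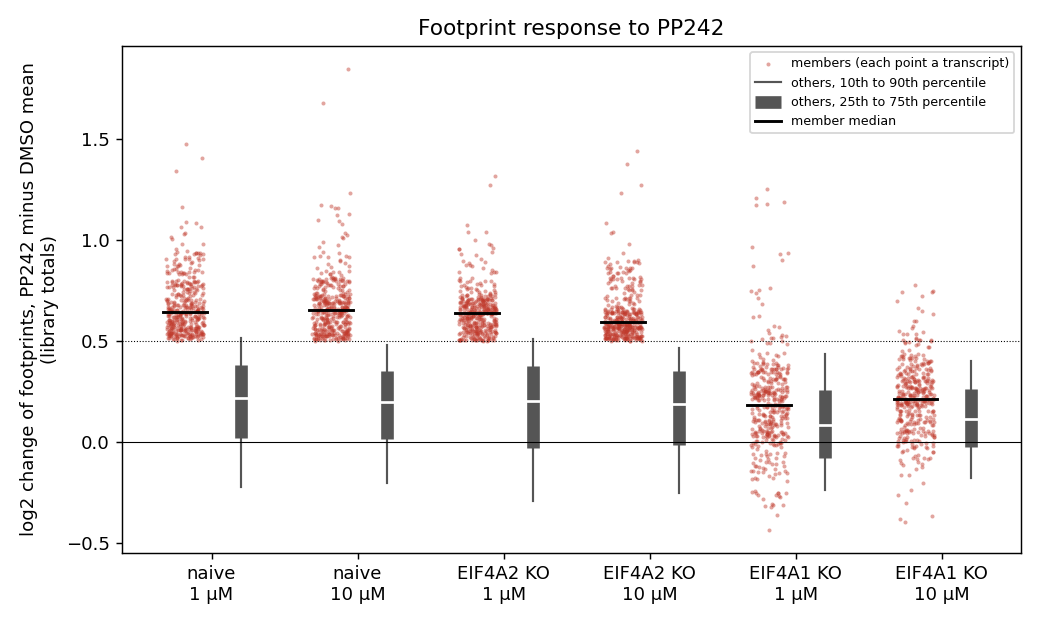
Log2 change of footprints from the DMSO mean at each PP242 dose in 3 genotypes, scaled by library totals; red points are the 399 members, black lines their medians, and dark grey bars the 10th to 90th and 25th to 75th percentiles of the other 21616 transcripts, with the median in white. Members start at 0.5 in naive and EIF4A2 KO cells by choice, while in EIF4A1 KO cells they spread from -0.43 to 1.25 at 1 µM.

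The member with the largest value of the smallest of its 4 differences has a listed length of 1586. In naive cells its footprints stood at 7.18 and 5.97 CPM with DMSO, against 18.2 with 1 µM and 21.0 with 10 µM PP242. In EIF4A2 KO cells it had 8.62 and 7.78 CPM in DMSO, 20.4 at 1 µM and 22.2 at 10 µM. Without EIF4A1 it was at 21.5 and 17.9 CPM in DMSO, 19.5 at 1 µM and 20.9 at 10 µM. The EIF4A1 KO libraries overlapped between DMSO and PP242, all at about the level that the other genotypes had only with PP242. This member was picked as the extreme of the naive and EIF4A2 KO values, so the contrast between genotypes carries no test. Its RNA was at 7.93 and 7.31 CPM in naive and 7.496 and 6.85 CPM in EIF4A1 KO cells.

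Whether the members also respond without EIF4A1 was tested in the 4 EIF4A1 KO libraries, with both doses as 1 treated group. With a call at a Benjamini-Hochberg adjusted p below 0.05 in edgeR's quasi-likelihood test, 23 of 399 members (5.76%) rose and 10 (2.51%) fell with PP242. The background was 3.33% rising and 4.64% falling among 48930 transcripts tested, and 4.34% and 9.28% among the 22015 transcripts that met the rest of the rule. The share rising was a little above both backgrounds, and the share falling was below both. The 23 came from 13 blocks and the 10 from 6, and among the 179 representatives 11 rose and 5 fell. The median member changed by 0.07 on the log2 scale (median SE 0.12), against -0.04 for the 22015 transcripts, and single members ranged from -0.52 to 0.84.

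These results depended on the scaling, the test and single libraries. With library totals in place of TMM, the scale of the rule, 90 members (22.6%) were called as rising and 0 as falling, beside 11% and 2.27% of all transcripts tested, and the median was 0.22, since that scale moved the median of all transcripts tested from 0.008 to 0.15. Without EIF4A1 KO DMSO replicate 1 the members' median was 0.082, beside 0.018 for all transcripts tested, and without replicate 2 it was 0.028, beside 0.012. Without the 1 µM library it was 0.055, beside 0.002, and without the 10 µM library 0.046, beside 0.004. With the dose as a score of 0, 1 and 2 no member was called, against 36 at an unadjusted p under 0.05. The DESeq2 Wald test called 9 as rising and 1 as falling among the 350 members to which it gave an adjusted p (2.57% and 0.286%). Of all 19522 transcripts to which it gave an adjusted p, 1.75% were called as rising and 6.16% as falling.

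By the rule's own measure, 14 of 399 members (3.51%) were 0.5 or more above DMSO at both doses in EIF4A1 KO cells, beside 3.11% of the other 21616 transcripts. At least above 0 at both doses were 317 members (79.4%) and 56.7% of the others; with TMM these shares were 49.6% and 31.5%. Among the members, the mean of the 4 differences in naive and EIF4A2 KO cells and the change in EIF4A1 KO cells had a Spearman rho of 0.105 across 399 transcripts (0.24 across the others). The choice narrows the range of the first measure, and members of a block are not independent.

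**Figure D2:**
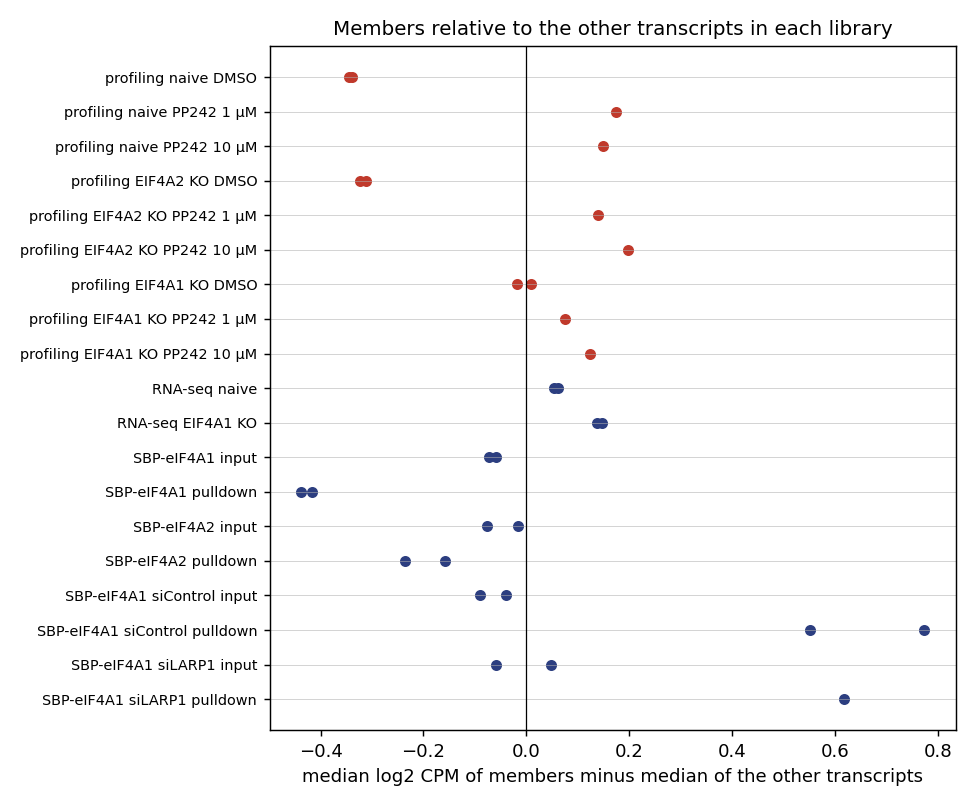
Median log2 CPM of the 399 members minus that of the other 21616 transcripts, 1 point per library, with profiling libraries in red and RNA-seq, input and pulldown libraries in blue. The naive and EIF4A2 KO DMSO libraries sit between -0.34 and -0.31 and the EIF4A1 KO DMSO libraries at -0.02 and 0.01.

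The EIF4A1 KO cells differed in where the members started. Relative to the other transcripts, the member median stood at -0.34 in both naive DMSO libraries and at -0.31 and -0.32 in EIF4A2 KO. It stood at -0.02 and 0.01 in the EIF4A1 KO DMSO libraries. With PP242 it was 0.17 and 0.15 in naive cells at 1 and 10 µM, 0.14 and 0.20 in EIF4A2 KO cells, and 0.08 and 0.12 in EIF4A1 KO cells. In DMSO, 377 of 399 members (94.5%) were higher in EIF4A1 KO than in naive cells, by a median of 0.43, against 61.9% and 0.10 of the others. Against EIF4A2 KO cells 353 (88.5%) were higher, by a median of 0.36, against 59.9% and 0.085 of the others. With PP242 the EIF4A1 KO and naive levels were close, with a median difference of -0.01 and 191 of 399 members (47.9%) higher, beside 53.0% of the others. Against EIF4A2 KO cells with PP242 the median was -0.07 and 146 members (36.6%) were higher, beside 52.6% of the others. Over the 179 block representatives the PP242 medians were -0.06 against naive (41.3% higher) and -0.13 against EIF4A2 KO cells (32.4% higher). The naive and EIF4A2 KO libraries chose the members, and a low DMSO value helped a transcript to pass. These differences are therefore a description with no test.

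Of the transcripts called in EIF4A1 KO cells, the 2 with the smallest p in each direction are given by ID, 1 per block. ENST00000372397.6 (listed length 125, 1 of 5 members of its block) stood at 15.5 and 17.05 CPM in the EIF4A1 KO DMSO libraries, 37.55 at 1 µM and 27.9 at 10 µM. Both PP242 libraries were above both DMSO libraries, and the log2 change was 0.84 (SE 0.12, edgeR adjusted p 6.24e-09). In naive cells it had 14.1 and 16.35 CPM in DMSO, 28.3 at 1 µM and 25.7 at 10 µM. In EIF4A2 KO cells it had 14.7 and 14.96 CPM in DMSO, 23.0 and 24.8 with PP242. Its PP242 libraries lay above its DMSO libraries in all 3 genotypes, and the DMSO levels of the genotypes overlapped or lay close. Its RNA was lower in EIF4A1 KO cells, with 13.8 and 14.97 CPM against 23.0 and 23.2 in naive cells, a log2 difference of -0.69 (SE 0.05, edgeR adjusted p 9.45e-13).

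ENST00000262803.9 (length 1109, block of 2) had 28.5 and 24.7 CPM in the EIF4A1 KO DMSO libraries, 44.55 at 1 µM and 37.4 at 10 µM, a log2 change of 0.46 (SE 0.10, edgeR adjusted p 0.000342). Its naive values were 24.7 and 25.7 CPM in DMSO, 37.1 and 40.01 with PP242. Its DMSO level too was alike in the 3 genotypes, with 26.8 and 24.2 CPM in EIF4A2 KO cells.

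ENST00000367478.9 (length 2354, alone in its block) fell in EIF4A1 KO cells. It had 133.5 and 135.3 CPM in DMSO, 121.4 at 1 µM and 130.5 at 10 µM, a log2 change of -0.24 with TMM (SE 0.07, edgeR adjusted p 0.0127). In naive cells it went the other way, from 80.8 and 76.5 CPM to 124.9 and 125.8. In EIF4A2 KO cells it went from 97.6 and 101.1 to 141.0 and 144.6 CPM. Its DMSO level in EIF4A1 KO cells was thus above the naive level with PP242. Its RNA was 144.2 and 136.5 CPM in naive and 146.7 and 145.4 CPM in EIF4A1 KO cells, a log2 difference of 0.05 (SE 0.03, edgeR adjusted p 0.217).

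ENST00000614960.4 (length 1639, alone in its block) had 27.7 and 32.4 CPM in the EIF4A1 KO DMSO libraries, 25.15 at 1 µM and 26.7 at 10 µM. The log2 change was -0.35 (SE 0.10, edgeR adjusted p 0.0144). In naive cells it had 23.5 and 20.3 CPM in DMSO, 30.98 and 32.3 with PP242. Of these 4 transcripts, both that fell were higher in EIF4A1 KO than in naive DMSO libraries with no overlap, and both that rose overlapped with them. They were picked by their PP242 response in libraries that include these DMSO values, so this contrast carries no test.

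**Figure D3:**
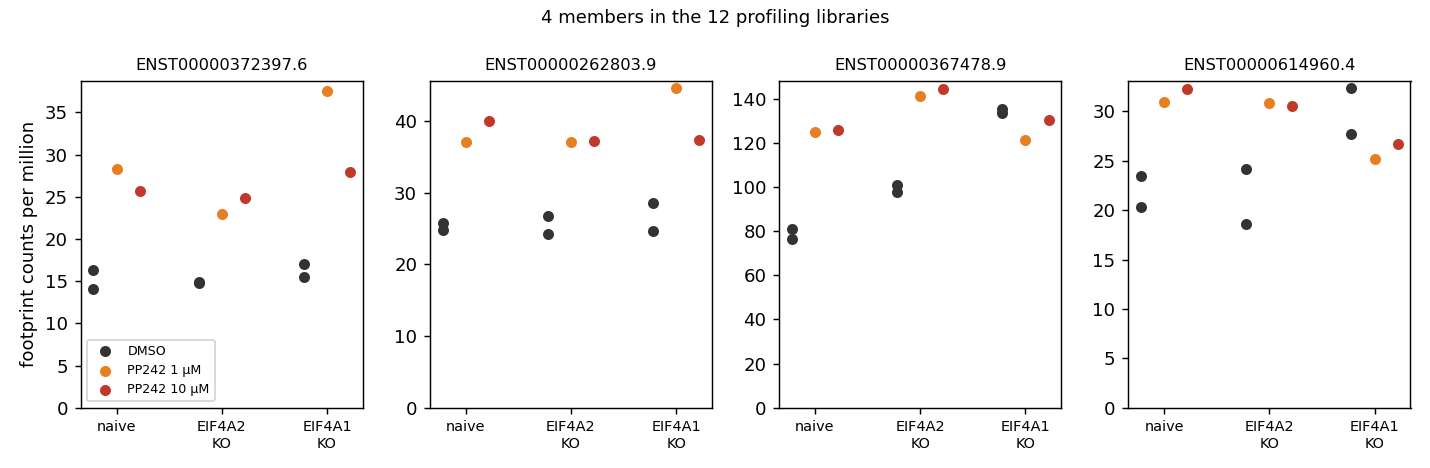
Footprint CPM (axes from 0) of 4 members in the 12 profiling libraries, 1 point per library, for DMSO (black), 1 µM (orange) and 10 µM (red) PP242. ENST00000372397.6 and ENST00000262803.9 have their PP242 points above their DMSO points in every genotype, while ENST00000367478.9 and ENST00000614960.4 have their EIF4A1 KO DMSO points above those of PP242.

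The RNA of the members was tested between EIF4A1 KO and naive cells without PP242. In edgeR's quasi-likelihood test 202 of 399 members (50.6%) were higher in EIF4A1 KO cells and 43 (10.8%) lower. Of all 64352 transcripts tested 20.7% were higher and 20.6% lower, and of those that met the rest of the rule 32.2% and 23.8%. The members were thus called higher more often than either background. The median change was small, 0.17 on the log2 scale (median SE 0.06), against 0.03 for the transcripts that met the rest of the rule, and single members ranged from -1.02 to 1.28. Among the representatives 92 of 179 were higher and 18 lower.

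Length moved with this result. Longer transcripts had more RNA in EIF4A1 KO cells in general: the other transcripts had a median change of -0.025 at a length under 300, 0.06 at 300 up to 1000 and 0.13 at 1000 up to 3000. The members had 0.095, 0.15 and 0.19 in the same ranges, above the others in each. The part of length in the result was not tested. The median RNA difference of 0.17 stands beside a median DMSO footprint difference of 0.43 between the same genotypes, and both measures had a Spearman rho of 0.37 across the 399 members and 0.53 across the 21604 other transcripts with both values. They share no library, though the naive footprints chose the members.

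The members were long, within the limit that the rule set. Their median length was 737, against 344 for the other 21616 transcripts, and 10% were under 197 and 10% over 1740. The unit of length is not given by the files. In RNA abundance they were ordinary, with a median of 3.78 log2 CPM in naive cells against 3.72 for the others. Per unit of length their naive RNA level was lower, with a median log2 of -5.72 against -4.73.

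Footprints per RNA, the ratio used for translation efficiency, can be read in EIF4A1 KO cells free of the rule's threshold on the rise, though not of its minimum of 50 counts, which members and others share. There the median log2 ratio of DMSO footprints to RNA was 0.14 for the members and 0.30 for the others, so the members lay a little below the rest. Over the 179 block representatives it was 0.059. In naive cells it was -0.10 and 0.22, but those DMSO libraries chose the members. With PP242 the naive ratio was 0.56 for the members and 0.41 for the others, but those PP242 libraries chose the members too. The EIF4A1 KO ratio with PP242 was 0.35 and 0.39. Over the 179 block representatives the ratios with PP242 were 0.44 in naive and 0.197 in EIF4A1 KO cells. RNA was not measured under PP242, so these ratios use RNA from untreated cells.

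The pulldowns show which transcripts were captured with a tagged helicase. The members were mostly depleted from both. With SBP-eIF4A1, 293 of 399 members (73.4%) were lower in the pulldown than in the input and 27 (6.77%) higher by edgeR's quasi-likelihood test. The background was 31.8% lower and 32.2% higher among 65697 transcripts, and 55.3% and 25.9% among those that met the rest of the rule. The median log2 enrichment was -0.80 (median SE 0.09), against -0.33. Of the 179 representatives 132 were lower and 14 higher. Per library, on the scale of library totals, the members' median was -0.94 and -0.95 in the 2 pulldowns and that of the other transcripts -0.50 and -0.49.

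With SBP-eIF4A2, 294 members (73.7%) were lower and 65 (16.3%) higher. Here the background was 34.6% lower and 33.6% higher among all transcripts tested, and 63% and 20.1% among those that met the rest of the rule. The median was -0.70 (median SE 0.09), against -0.48. Of the representatives 127 were lower and 26 higher. In the 2 pulldown libraries the members' median was -0.49 and -0.60 on the scale of library totals, and that of the others -0.28 and -0.31. Of the members depleted with SBP-eIF4A1, 263 were also depleted with SBP-eIF4A2, which is 89.8% of the first list and 89.5% of the second. No member was enriched with SBP-eIF4A1 and depleted with SBP-eIF4A2, and 12 were depleted with SBP-eIF4A1 and enriched with SBP-eIF4A2. These joint counts were not taken over all transcripts. Both enrichments had a Spearman rho of 0.89 across the 399 members and 0.87 across 21608 other transcripts, so the likeness was not particular to the members.

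The difference of both enrichments was tested in the same fit. Each protein had its own inputs and pulldowns, so the protein and whatever else set these libraries apart cannot be told apart. For 89 members (22.3%) enrichment was lower with SBP-eIF4A1 than with SBP-eIF4A2, and for 18 (4.51%) it was higher, by edgeR's quasi-likelihood test. The transcripts that met the rest of the rule went the other way, with 8.86% lower and 28.8% higher (7.47% and 12.7% of all tested). The members' median was -0.08, against 0.14. Of the representatives 38 were lower and 11 higher. With library totals the split was 235 lower (58.9%) and 3 higher (0.752%), beside 27.2% and 3.99% of all tested. That scale moved the median of all transcripts tested from 0.02 to -0.32. Without SBP-eIF4A2 pulldown replicate 1 the members' median was -0.034, and without replicate 2 of it -0.111, beside 0.041 and 0.032 for all tested. Leaving out any other single library gave medians from -0.078 to -0.043, beside 0.023 to 0.035 for all tested.

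**Figure D4:**
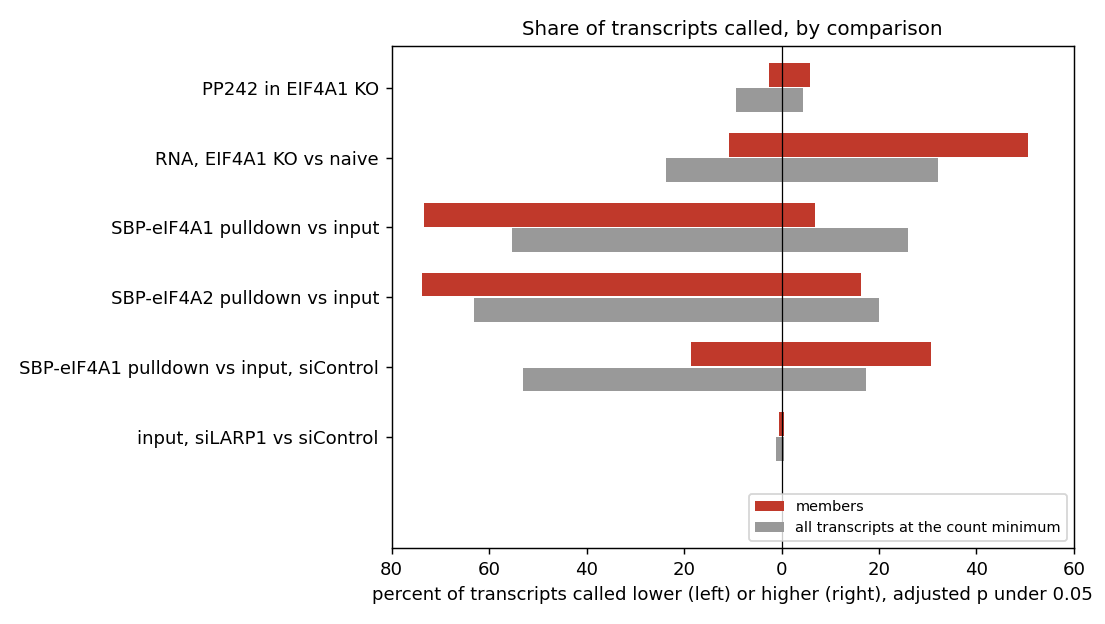
Percent of transcripts called lower (to the left) or higher (to the right) by edgeR's quasi-likelihood test (adjusted p below 0.05) in 6 comparisons, for the 399 members (red) and all transcripts at the count minimum and below the length limit (grey). With SBP-eIF4A1, 73.4% of the members were lower against 55.3%, and in the EIF4A1 KO RNA 50.6% were higher against 32.2%.

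Capture also followed length, and it did so differently for short and long members. At a length of 1000 up to 3000 the median SBP-eIF4A1 enrichment was -0.94 for 136 members and -0.95 for 2407 others, so there the members were like other long transcripts. At 300 up to 1000 it was -0.66 for 185 members and -0.46 for the others. Under 300 it was -0.60 for 78 members, while the others were at -0.004. The gap between the medians was thus widest in the shortest range. For the difference between the helicases the medians under 300 were 0.002 for the members and 0.36 for the others, and at 1000 up to 3000 they were -0.26 and -0.23. The ranges of length were chosen after the values were seen, and the part of length was not tested.

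After control siRNA the same SBP-eIF4A1 pulldown gave another picture. By edgeR's quasi-likelihood test 122 of 399 members (30.6%) were enriched over input and 74 (18.5%) depleted. Among all 65936 transcripts tested 29.1% were enriched and 28% depleted, and among those that met the rest of the rule 17.4% and 53.1%. The median was 0.07 (median SE 0.20), against -0.54. Over the 179 representatives the split was closer, with 54 (30.2%) enriched and 45 (25.1%) depleted and a median of 0.011. In the 2 pulldown libraries the members' median was 0.50 and 0.71 on the scale of library totals, and that of the others -0.02 and 0.003. The members' median without siControl pulldown replicate 2 was -0.05, and without replicate 1 it was 0.16; without siControl input replicate 1 it was 0.001. With library totals in the fit 223 members (55.9%) were enriched and 24 (6.02%) depleted, beside 46.6% and 15.1% of all transcripts tested. The median was 0.61, which was also the median of all transcripts tested on that scale.

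Length again moved with the result, in the opposite direction. Under 300 the median was -0.21 for the members and -1.06 for the others, at 300 up to 1000 it was -0.05 and -0.33, and at 1000 up to 3000 it was 0.34 and 0.40. The median of the short members thus lay below that of other short transcripts without siRNA and above it with control siRNA. Of the 293 members depleted without siRNA, 85 were enriched and 61 depleted with control siRNA, a joint count that was not taken over all transcripts.

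The difference between both experiments was tested in 1 fit of their 8 libraries, added after the values were seen. By edgeR's quasi-likelihood test 295 of 399 members (73.9%) were more enriched with control siRNA and 32 (8.02%) less, with a median difference of 0.94 (median SE 0.18). Of the representatives 118 were higher and 18 lower. Among all 65044 transcripts tested 29.6% were called higher and 27.1% lower, and among those that met the rest of the rule 31.6% and 41.9%. With a length under 300 the median difference was 0.39 for the members and -1.04 for the others, and at 1000 up to 3000 it was 1.51 and 1.33. The siRNA and whatever else set the experiments apart cannot be told apart.

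**Figure D5:**
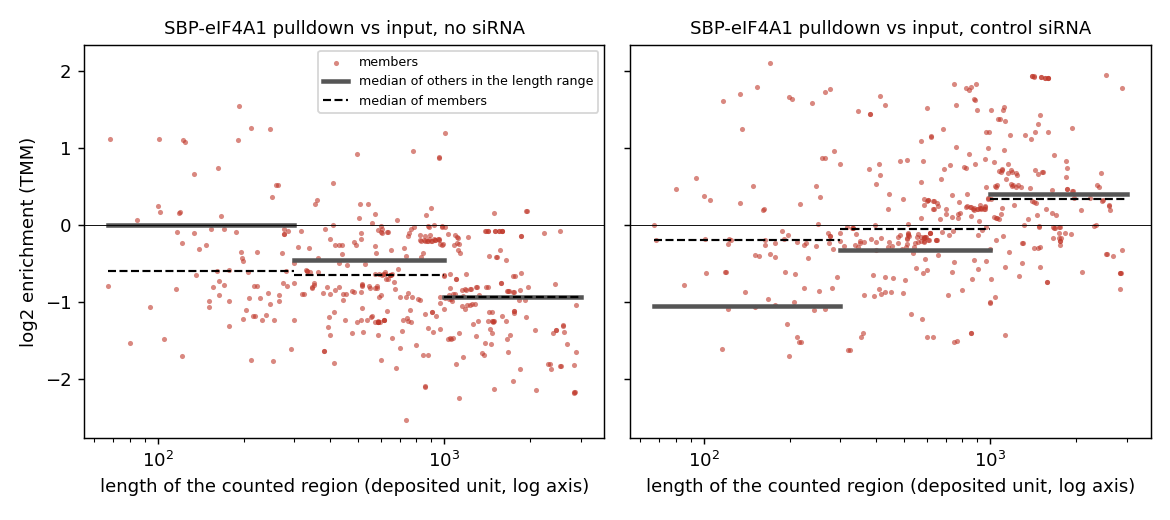
Log2 enrichment of the 399 members in the SBP-eIF4A1 pulldown against counted length (log axis), without siRNA (left) and with control siRNA (right); grey lines are medians of the other transcripts and dashed lines medians of the members in 3 ranges of length. Both medians meet at 1000 up to 3000 (-0.94 and -0.95 on the left, 0.34 and 0.40 on the right) and part under 300.

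The number of members called after LARP1 knockdown depended on the scaling and the test. In the inputs, 2 of 399 members (0.501%) were higher and 2 (0.501%) lower after siLARP1 by edgeR's quasi-likelihood test, against 0.482% and 0.443% of all transcripts tested and 0.473% and 1.05% of those that met the rest of the rule. The members' median was 0.04 (median SE 0.20), against -0.06. At an unadjusted p under 0.05 there were 58 members. The 2 that were higher share 1 block, as do the 2 that were lower, and of the representatives 0 were higher and 1 lower. With library totals 26 members (6.52%) were higher and 2 lower, beside 1.29% and 0.0364% of all transcripts tested. With the DESeq2 Wald test 19 of the 349 members with an adjusted p (5.44%) were higher and 2 (0.573%) lower. Of all 27586 transcripts with an adjusted p in that test, 1.14% were higher and 2.94% lower. With DESeq2 size factors in edgeR 0 were higher and 2 lower, beside 0.358% and 0.453%. Leaving out siControl input replicate 1 or 2 or siLARP1 input replicate 1 or 2 gave medians of -0.007, 0.076, -0.027 and 0.079 in that order. For all transcripts tested they were 0.004, 0.017, 0.003 and 0.001.

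The change of SBP-eIF4A1 enrichment after siLARP1 rests on 1 siLARP1 pulldown library, which the fit takes to vary like the other groups. No member was called (0% in either direction, as for all 65936 transcripts tested) by edgeR's quasi-likelihood test, against 10 members at an unadjusted p under 0.05, and the DESeq2 Wald test also called 0. The median member changed by -0.12 (median SE 0.31), against -0.06 for the transcripts that met the rest of the rule. Without siControl pulldown replicate 2 the median was -0.03, without replicate 1 it was -0.19, and without siControl input replicate 1 it was -0.07. In the siLARP1 pulldown the members' median enrichment was 0.41 on the scale of library totals and that of the others -0.14. The members thus stood 0.549 above the others, between the siControl pulldowns' 0.521 and 0.703.

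The 4 large blocks add 68 members and weigh on the counts over members. The block of 20 had RNA higher in EIF4A1 KO cells in all 20 (median log2 change 0.595). It was enriched with SBP-eIF4A2 in all 20 (median 0.545) and with SBP-eIF4A1 in none (median -0.09, 4 called as depleted), and all 20 were called as captured less with SBP-eIF4A1 than with SBP-eIF4A2. With control siRNA all 20 were enriched (median 1.90). The block of 18 was called in neither direction in RNA or with SBP-eIF4A1, and as depleted with SBP-eIF4A2 in all 18 (median -0.385). The block of 16 was depleted with both proteins in all 16 (medians -1.24 and -1.07), as was the block of 14 (medians -0.66 and -0.59). In the EIF4A1 KO response to PP242, 1 member of the block of 20 was called as rising and no other member of the 4 blocks was called.

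The 24 members that kept a rise of 0.5 or more with TMM came from 12 blocks and had lengths from 68 to 2333 (median 776). They were picked after the values were seen, and their counts are a description. In EIF4A1 KO cells 5 of the 24 (20.8%) rose with PP242 and 0 fell, the 5 from 2 blocks. Of the other 375 members 4.8% rose and 2.67% fell, and of all transcripts tested 3.33% and 4.64%. The median change of the 24 was 0.11, against 0.07 for the other 375. RNA was higher in EIF4A1 KO cells for 11 (45.8%) and lower for 4 (16.7%), beside 50.9% and 10.4% of the 375 and 20.7% and 20.6% of all. With SBP-eIF4A1 16 (66.7%) were depleted and 4 (16.7%) enriched, beside 73.9% and 6.13% of the 375 and 31.8% and 32.2% of all. With SBP-eIF4A2 16 (66.7%) were depleted and 5 (20.8%) enriched, beside 74.1% and 16% of the 375 and 34.6% and 33.6% of all. These counts hold few blocks. The 11 with higher RNA came from 4 blocks and the 4 with lower RNA from 1. The 4 enriched with SBP-eIF4A1 came from 1 block and the 16 depleted from 8. With SBP-eIF4A2 the 5 enriched came from 2 blocks and the 16 depleted from 7. The median enrichment of the 24 with SBP-eIF4A1 was -0.87, near the -0.80 of the other 375.

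Calls in EIF4A1 KO cells and calls in the pulldowns can be set side by side, since they share no library. Of the 23 members that rose with PP242 in EIF4A1 KO cells, 7 were enriched and 8 depleted with SBP-eIF4A1, where 6.77% and 73.4% of all members were. With SBP-eIF4A2 13 of the 23 were enriched (56.5%, and 20% of the 65 enriched) and 5 depleted, where 16.3% and 73.7% of all members were. Of the 10 that fell, 10 were depleted with SBP-eIF4A1, and with SBP-eIF4A2 8 were depleted and 2 enriched. These joint counts were not tested and were not taken over all transcripts. The 23 come from 13 blocks and the 10 from 6, so these counts hold few separate loci. ENST00000372397.6, from a block of 5 members, is among the 23 and was enriched with SBP-eIF4A1 (log2 1.07) and SBP-eIF4A2 (log2 1.04). How many of the enriched members belong to its block was not counted.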

How the data were processed

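Each deposited file listed versioned Ensembl transcripts with a length and the authors' raw read count, with no header. The submitters' processing notes name CASAVA 1.8, STAR 2.7.0a and the genome build hg38; the counting tool and annotation release are not given in the sources used here. The deposited length, equal in all 31 files and of unstated unit, is read here as that of the counted region, and no value is listed for 126981 transcripts. Rows equal in all files were collapsed to the first. Members and comparisons were chosen with earlier results of these data known.

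Tests used edgeR 4.0.16 in R 4.3.3: TMM, filterByExpr (minimum count 10, minimum total 15), glmQLFit and glmQLFTest, two-sided, Benjamini-Hochberg over all transcripts tested, called at an adjusted p under 0.05. The fits were the 4 EIF4A1 KO profiling libraries, the 4 RNA-seq, the 8 pulldown libraries without siRNA, the 7 with siRNA, and, added after the values were seen, the 8 SBP-eIF4A1 libraries without siRNA and with siControl. An SE is the log2 change divided by the root of its F. DESeq2 1.42.0 served as an alternative. Scripts were tested on simulated data. As no transcript matched a gene, planned gene lists and marker checks were not run, and 4 transcripts are named (smallest p in each direction, 1 per block).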

Additional observations from a re-analysis of the deposited data

Results flagged for a closer look

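Capture of the members differed between the pulldowns of both helicases, by a test of the difference in 1 fit. Enrichment was lower with SBP-eIF4A1 than with SBP-eIF4A2 for 89 members (22.3%) and higher for 18 (4.51%), with a median of -0.08. Of all transcripts tested 7.47% were lower and 12.7% higher. With library totals the split was 235 and 3, beside 27.2% and 3.99% of all. Under a length of 300 the medians were 0.002 for the members and 0.36 for the others. At 1000 up to 3000 they were -0.26 and -0.23, so there the members were like the others. The protein and whatever else set these libraries apart cannot be told apart. Capture also differed between the SBP-eIF4A1 experiments. There edgeR's quasi-likelihood test of the difference called 295 members (73.9%) as more enriched with control siRNA than without siRNA and 32 (8.02%) as less. Of all transcripts tested 29.6% were called as more enriched and 27.1% as less. This difference also moved with length. Under 300 its medians were 0.39 for the members and -1.04 for the others, and at 1000 up to 3000 they were 1.51 and 1.33. The part of length was not tested. No group of one condition held 4 libraries, so no test of an outlying library was made.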

How the results depend on the processing

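Each refit was compared with the main one by the percent of members called and again by their median, so it counts under both. Changes of the rule were compared by the number of members. Of 117 such comparisons that kept every library, 92 lay within the margin, as did 84 of 96 that left out 1 library. The margin was 1.5 times for a percent or a number, and 1 SD between libraries for a median. A percent of 0 in both fits counted as within it. Unless a sentence says otherwise, the cause was not tested. The number of members was 24 with TMM and with DESeq2 size factors in the rule, 243 with a minimum of 100 counts, 609 with 20, and 315 to 482 without 1 DMSO library. With library totals in place of TMM, 22.6% of members were called higher with PP242 in EIF4A1 KO cells (median 0.216). On that scale 58.9% were lower in the difference between the helicases (median -0.42). With control siRNA 55.9% were higher (median 0.609), and in the siLARP1 inputs 6.52% were higher (median 0.254). Of all transcripts tested these shares were 11%, 27.2%, 46.6% and 1.29% in the same order. The medians on that scale were -0.97 with SBP-eIF4A1, -0.527 with SBP-eIF4A2 and 1.616 for control siRNA minus no siRNA. The DESeq2 Wald test called 2.57% higher in EIF4A1 KO cells and 5.44% in the siLARP1 inputs, and the dose score 0%. Of all transcripts with an adjusted p in the same test these shares were 1.75%, 1.14% and 0.133%. With 1 transcript per locus, which kept 129 members, the medians were 0.147 for RNA and -0.709 with SBP-eIF4A1. In the siLARP1 inputs 1.25% were called higher with no filter, and 0% with DESeq2 size factors, 1 transcript per locus or the 4 inputs alone. Of all transcripts tested these shares were 1.07%, 0.358%, 0.281% and 0.0551%.

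Leaving out 1 library gave 2.01% to 5.26% called higher in EIF4A1 KO cells (2.76% without DMSO replicate 2; medians 0.028 to 0.082) and 0% in the siLARP1 inputs each time. Of all transcripts tested, a smaller share was called higher in each of these EIF4A1 KO fits. In the siLARP1 inputs a larger share was. The 0% covers the higher direction only. Some members were called lower there without siControl input replicate 1 and without siLARP1 input replicate 1. Each of these fits left 1 library in a group, so no conclusion is drawn from its calls. With 1 library left out, the medians ran from 0.156 to 0.176 for RNA, from -0.821 to -0.745 with SBP-eIF4A1 and from -0.781 to -0.691 with SBP-eIF4A2.

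Same-numbered libraries of 2 groups had correlated deviations from -0.0777 to 0.158, so the numbers were not taken as pairs. With the replicate number as a block, 49.4% of members were called higher in RNA, 73.4% lower with SBP-eIF4A1 and 73.7% lower with SBP-eIF4A2. In the difference between the helicases 22.8% were lower, with control siRNA 30.8% higher, and in the siLARP1 inputs 0% higher. Of all transcripts tested these shares were 19.9%, 31.6%, 34.5%, 7.09%, 30.4% and 0.133% in the same order. No paired analysis was possible for PP242 in EIF4A1 KO cells or the siLARP1 enrichment change, because the PP242 and siLARP1 pulldown libraries carry no replicate number.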
